A study of Mus musculus with 12 samples.

Results

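Transcripts of the clustered histone genes were measured by RNA sequencing in a primary line of mouse mammary fibroblasts (MMF) exposed to doxorubicin or hydrogen peroxide. The genes were the protein-coding genes named as members of the H1, H2A, H2B, H3 or H4 clusters that reached 0.3 CPM (counts per 1e+06 reads assigned to genes) in at least 3 of 12 libraries. Of 69 genes with such a name, 29 met this minimum, out of 55487 genes in the table. The members were thus selected on their measured CPM, and 40 histone genes with lower values were left out. Just inside the minimum, the third highest library held 0.301 CPM for Hist1h2bp and 0.316 CPM for Hist1h4m. Just outside it stood Hist1h2ao at 0.284 CPM and H3c6 at 0.279 CPM. Of the genes left out, 5 were listed at 0 in every library, and the highest single value was 0.954 CPM.

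The MMF line was derived from 1 B6 mouse, and its 12 libraries formed 4 groups of 3. Doxorubicin, a topoisomerase poison that breaks DNA, was given at 100 nM for 24 h to cells lysed on day 7. Hydrogen peroxide, an oxidant, was given at 750 uM for 2 h in each of 3 rounds with 48 h of recovery, and these cells were lysed on day 6. H2O served as the vehicle, in a separate control group for each treatment that was lysed on the same day. The series describes both treatments as ways to induce senescence, a lasting arrest of the cell cycle. The vehicle cultures were passaged to keep their density down, so treatment and passaging cannot be told apart. The labels do not say that the replicates were separate cultures, and p-values then measure only the spread between these libraries. Estimated depth ran from 17.3 to 37.6 M (1e+06) reads per library.

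The core histones H2A, H2B, H3 and H4 form the nucleosome, the spool on which DNA is wound, and the linker histone H1 binds where the DNA enters and leaves it. Most copies of these genes lie in clusters and are switched on in S phase, when new DNA has to be packaged. Their mRNA normally ends in a short stem-loop bound by the protein Slbp instead of a poly(A) tail, and it is degraded when DNA synthesis stops. Some clustered genes also give longer transcripts with a poly(A) tail, for instance in cells that have left the cell cycle. The library kit, and with it any selection for poly(A) RNA, is not given in the sources used here, and this bears on how much of each kind of transcript could be read.

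All 29 members were found in GENCODE M21 on GRCm38/mm10. The HIST1 cluster on chromosome 13 held 22 members, the HIST2 cluster on chromosome 3 held 6, and H1f0 lay alone on chromosome 15. H1f0 matched the naming rule although it is the replication-independent linker histone and belongs to no cluster. The stem-loop was searched on the transcript strand as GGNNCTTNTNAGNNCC, 16 bases with 6 paired bases on each side of a 4-base loop. It was present in 22 of 29 members, in 44 of the 69 named genes and in 0.283% of 21901 genes with a protein-coding transcript. The members carried 3 versions of it, printed here 5′ to 3′ with the loop in capitals, to show that H4 genes and the other classes differed in it.
H1f2: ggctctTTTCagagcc
H4c8: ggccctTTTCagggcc
H4c9: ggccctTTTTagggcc
The version of H1f2 was found in 15 members, all of them H1, H2A, H2B or H3 genes. The version of H4c8 was found in 5 members, all of them H4 genes, and that of H4c9 in H4c9 and H4c14. The annotated end of H1f1 cut the same stem-loop short by its last base, leaving these 15 bases.
H1f1: ggctctTTTCagagc

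The annotation placed the 3′ end of the members in different positions relative to this element. In 15 members the transcript ran more than 100 bases past the stem-loop or had another transcript without it. In 8 members, H1f1 included, the annotated transcript ended within 100 bases of it. In 6 members the annotated transcripts held no match: H1f0, H1f5, H2bc21, H2bc4, Hist1h2bq and Hist1h2br. The H1f2 transcript (chr13:23738808-23740367, plus strand, 1 exon) continued for 840 bases after the stem-loop, and that of H2ac6 continued for 2010 bases. The H4c8 transcript (chr13:23531050-23531519, plus strand, 1 exon) ended 46 bases after it. H2bc4 (chr13:23684199-23692908, plus strand) was annotated with a single transcript, which is spliced from 2 exons. The annotation of H1f5 (chr13:21779883-21780625, minus strand) stopped without the element. These are properties of the gene models, not of the reads measured here.

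Promoter sequences from RefSeq (GRCm38.p6) were matched for 26 members. The 250 bases before the start were searched on both strands for TATAAA, the core of the TATA box, for CCAAT, and for the octamer ATTTGCAT, an element known from H2B promoters. TATAAA was found in 12 members, against 12.4% of 32851 promoters. CCAAT was found in 19 members, against 33.9% of promoters, and these included 7 of 7 matched H2B genes and 4 of 4 matched H2A genes. The octamer was found in H2ac6, H2bc6 and H2bc8, against 1.60% of promoters. The windows of 4 members with unlike responses are printed 5′ to 3′ on the gene's strand, with every match to these motifs in capitals. They are those of H1f2 (chr13:23738557-23738806, plus strand), H1f5 (chr13:21780626-21780875, minus strand), H2bc8 (chr13:23571150-23571399, plus strand) and H4c8 (chr13:23530794-23531043, plus strand).
H1f2: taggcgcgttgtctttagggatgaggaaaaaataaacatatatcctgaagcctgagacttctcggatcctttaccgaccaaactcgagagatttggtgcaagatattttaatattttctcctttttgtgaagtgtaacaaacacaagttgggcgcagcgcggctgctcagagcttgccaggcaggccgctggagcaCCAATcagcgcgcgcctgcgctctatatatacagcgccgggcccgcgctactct
H1f5: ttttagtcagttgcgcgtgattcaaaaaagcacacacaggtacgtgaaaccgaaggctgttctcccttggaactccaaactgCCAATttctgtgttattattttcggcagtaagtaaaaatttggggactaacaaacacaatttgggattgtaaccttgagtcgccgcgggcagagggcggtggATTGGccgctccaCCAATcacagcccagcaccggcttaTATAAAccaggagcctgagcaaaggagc
H2bc8: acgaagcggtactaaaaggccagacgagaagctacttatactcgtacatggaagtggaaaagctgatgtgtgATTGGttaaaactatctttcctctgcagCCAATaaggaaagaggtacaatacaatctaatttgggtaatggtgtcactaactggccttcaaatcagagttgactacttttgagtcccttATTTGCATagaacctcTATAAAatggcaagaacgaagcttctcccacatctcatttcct
H4c8: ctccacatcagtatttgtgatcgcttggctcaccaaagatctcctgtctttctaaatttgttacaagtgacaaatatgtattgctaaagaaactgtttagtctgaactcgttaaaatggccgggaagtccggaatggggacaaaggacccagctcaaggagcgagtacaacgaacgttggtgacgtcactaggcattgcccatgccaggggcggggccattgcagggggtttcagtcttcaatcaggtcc
The H2bc8 window held all 3 motifs, the H1f5 window held TATAAA and CCAAT, and the H1f2 window held CCAAT. These letters were not found in the H4c8 window. A match is a description of sequence and no binding was measured.

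Many members have near-identical copies, so the reads of a gene can be split or pooled among its relatives. The share of a gene's 75-base windows that also occurred in another gene was 100% for H2ac19 and H3c14, 96.1% for Hist1h2bq, 92.6% for Hist1h2ap, 89.0% for Hist1h4m, 88.9% for H2ac18, 87.6% for Hist1h2br, 83.4% for Hist1h4n, 62.6% for H3c15 and 50.4% for H2bc11. It was 42.4% for H4c8, 27.1% for H2bc4, 22.4% for H4c9, 6.66% for H1f2 and 3.67% for H4c4. H1f0, H1f1, H1f5, H2bc21 and H4c14 had no shared window. Values of the first set are uncertain as to the copy they came from, since the counting method is not given in the sources used here. H2bc6 also overlaps H1f4 on the same strand. H2ac18 and H3c14 both overlap Gm20634, a gene that is not a member, on the same strand, and share most windows with it.

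Doxorubicin was followed by higher transcript levels for most members and by lower levels for a few linker and H2A genes. On the log2(CPM + 1) scale, 18 of 29 members rose, 4 fell and 7 did not pass the test (limma, Benjamini-Hochberg adjusted p under 0.05 over 15921 genes). Among all tested genes 21.2% rose and 23.7% fell. The median difference was 0.95 log2 units over the members and -0.003 over all tested genes. A member that reached the CPM minimum only through treated libraries had to differ, so these counts and medians, and those for peroxide, are not independent of the choice of members. The vehicle libraries alone would have admitted 17 members, of which 10 rose and 4 fell. The 3 libraries of each group did not overlap for 21 members that were higher and 5 that were lower, against 25.8% and 29.9% of all tested genes. In a bulk culture, fewer cells making a transcript and less transcript per cell cannot be told apart.

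H2bc4, an H2B gene, showed the largest increase on the log2(CPM + 1) scale and also the widest spread in CPM. Its CPM was 5.42, 6.72 and 2.41 in doxorubicin vehicle replicates 1, 2 and 3, and 29.4, 426 and 226 after doxorubicin. Every doxorubicin library lay above every vehicle library, but replicate 2 stood far above replicate 1. The means were 4.85 ± 2.21 and 227 ± 198 CPM (SD, n = 3), and the difference was 4.70 ± 0.82 (SE) log2 units (limma, adjusted p = 0.000730). The ratio of the means was 46.8, and 26.4 without doxorubicin replicate 2. Among all members' CPM, H2bc4 alone took 19.1, 68.0 and 58.0% in the doxorubicin libraries and 2.10 to 5.42% in their vehicle libraries.

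H4c8, an H4 gene whose annotated transcript ends close to the stem-loop, rose from near 0 in every treated library. It was measured at 0.106, 0.413 and 0 CPM in the vehicle libraries and at 6.15, 16.2 and 17.9 CPM after doxorubicin. All 3 treated libraries were higher, with replicate 1 again the lowest. The difference was 3.52 ± 0.37 (SE) log2 units (limma, adjusted p = 1.47e-05). The other H4 genes that rose were H4c9, from 2.22, 2.49 and 0.914 CPM to 5.93, 8.79 and 9.73 CPM, and H4c14, from 0.543, 1.14 and 0.821 CPM to 2.70, 2.39 and 2.69 CPM. Neither pair of ranges overlapped, and the differences were 1.69 and 0.98 log2 units (limma, adjusted p = 0.000717 and 0.00581). H4c4, the H4 gene with the highest level per length in the vehicle groups, went the other way, from 12.4, 12.8 and 9.13 CPM to 5.49, 7.10 and 7.48 CPM. Its ranges did not overlap, yet the difference of -0.69 log2 units did not pass the test (limma, adjusted p = 0.162). Hist1h4n reached the CPM minimum in the doxorubicin group alone, at 0.507, 1.30 and 1.16 CPM, so its increase was part of its selection. H4c3 and Hist1h4m did not pass the test.

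Linker histones split into genes that rose and genes that fell. H1f2, known as the main linker histone of many somatic cells, held 8.38, 8.83 and 7.38 CPM in the vehicle libraries and 33.0, 45.0 and 35.6 CPM after doxorubicin. The treated libraries were several-fold higher with little spread, 37.9 ± 6.33 against 8.20 ± 0.744 CPM (SD, n = 3), a difference of 2.07 ± 0.15 (SE) log2 units (limma, adjusted p = 8.11e-07). H1f3 rose from 0.395, 0.183 and 0.616 CPM to 1.35, 1.84 and 1.87 CPM, a difference of 0.95 log2 units (limma, adjusted p = 0.000157). H1f5 fell from 6.91, 7.20 and 6.46 CPM to 1.16, 0.691 and 0.709 CPM, 8.02 times lower in the means, and no treated library came near a vehicle library (-2.09 ± 0.16 (SE) log2 units, limma, adjusted p = 1.42e-06). H1f1 fell from 0.987, 1.41 and 1.08 CPM to 0.559, 0.106 and 0.199 CPM (-0.76 log2 units, limma, adjusted p = 0.000975). H1f0, the replication-independent linker histone, had the highest level per length in the vehicle groups and fell from 72.5, 73.4 and 76.6 CPM to 40.9, 44.0 and 41.5 CPM (-0.80 ± 0.07 (SE) log2 units, limma, adjusted p = 2.32e-06). H1f4 held 1.12, 1.19 and 1.002 CPM in the vehicle libraries and 1.07, 1.55 and 0.807 CPM after doxorubicin, with overlapping ranges. The sum of the other 5 linker members, without H1f0, was 17.7 CPM on average in the vehicle group and 41.8 CPM after doxorubicin, with no overlap. H1f2 alone made up 8.20 and 37.9 CPM of these means. Of the others, H1f3 rose, H1f1 and H1f5 fell and H1f4 overlapped.

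**Figure D1:**
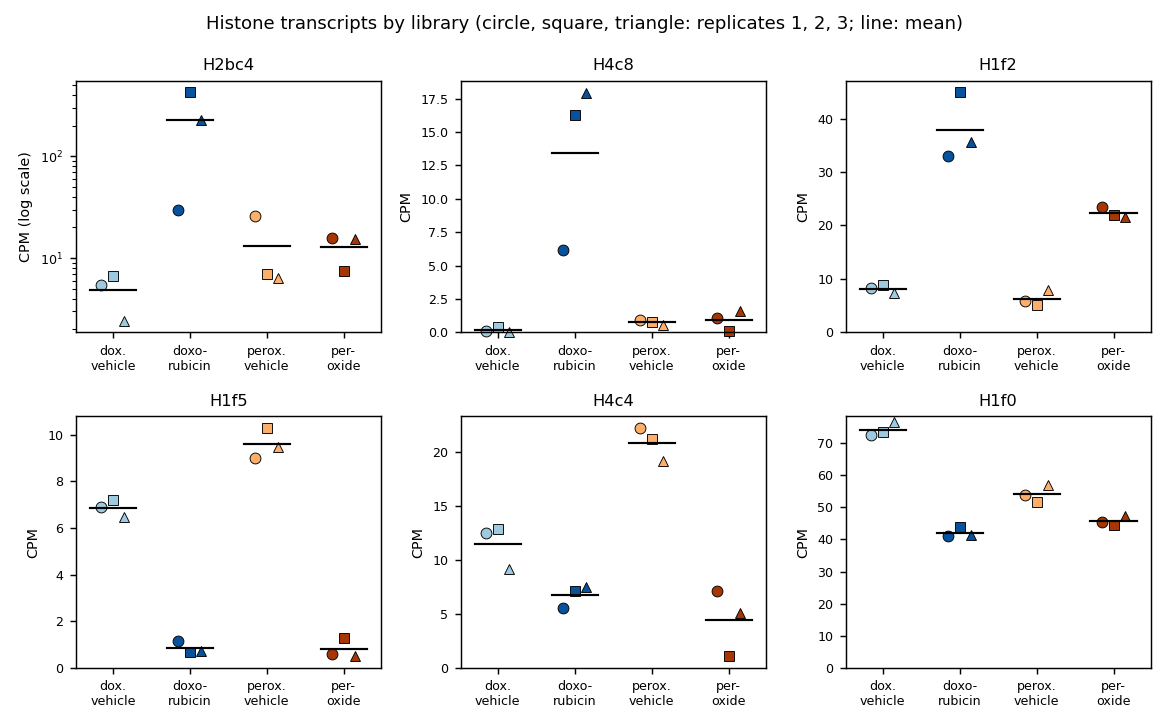
CPM of 6 histone genes in each library, with 1 panel per gene, the 4 groups on the horizontal axis and a logarithmic vertical axis for H2bc4 alone. Symbols mark replicates 1 to 3 and black lines the group means: H1f5 and H1f2 move in opposite directions under both treatments, while H2bc4 and H4c8 stand high in the doxorubicin group and doxorubicin replicate 1 is the lowest of its group for both.

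In the H2B class, 7 of 9 members rose with doxorubicin and 0 fell, against 21.2% and 23.7% of all tested genes. Besides H2bc4, H2bc6 went from 0.468, 0.876 and 0.495 CPM to 3.46, 7.45 and 5.58 CPM (1.97 log2 units, limma, adjusted p = 1.1e-05). Hist1h2br went from 1.71, 0.987 and 1.85 CPM to 5.96, 8.09 and 10.01 CPM (1.83 log2 units, limma, adjusted p = 0.000665), and Hist1h2bq from 0, 0.722 and 0 CPM to 1.51, 4.34 and 5.16 CPM (1.86 log2 units, limma, adjusted p = 0.00132). Both carry a high share of windows found in other H2B genes. H2bc21, which shares no window, rose from 1.33, 0.775 and 1.69 CPM to 4.94, 2.85 and 3.52 CPM (1.07 log2 units, limma, adjusted p = 0.00138). H2bc8 was 0.0750, 0.0570 and 0.0523 CPM in the vehicle libraries and 0.197, 5.88 and 4.23 CPM after doxorubicin, so replicate 1 stayed close to the vehicle level. Its difference of 1.72 log2 units passed the test with all libraries (limma, adjusted p = 0.0139) and not without doxorubicin replicate 2 (adjusted p = 0.0595), without replicate 3 (0.0593) or with each experiment fitted separately (0.0528). Hist1h2bp was listed at 0 in all 3 libraries of the vehicle group and at 0.0512, 0.414 and 1.23 CPM after doxorubicin, and its call (limma, adjusted p = 0.0462) was lost in 18 of 25 other settings, 10 of which left out any single library other than doxorubicin replicate 1 or peroxide vehicle replicate 1. Without the doxorubicin group, H2bc8 and Hist1h2bp would not have reached the CPM minimum, so their increases were part of their selection. Hist1h2bq did not reach the minimum through vehicle libraries alone. H2bc9 and H2bc11 did not pass the test.

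Among H2A genes, H2ac6 rose from 0.0498, 0.0930 and 0.210 CPM to 2.24, 2.92 and 2.78 CPM (1.70 ± 0.12 (SE) log2 units, limma, adjusted p = 7.44e-07). Only doxorubicin and peroxide libraries brought H2ac6 to the CPM minimum, so its increase with either treatment was part of its selection. H2ac19 was listed at 0 in all 3 libraries of the vehicle group and at 1.84, 4.77 and 2.07 CPM after doxorubicin (limma, adjusted p = 0.000123). With the vehicle group set to a floor of 3 reads over the group, the ratio was 59.5. As 100% of its windows occur in other genes, most of all in H2ac18, the 0 may reflect how reads were assigned. The ratio is therefore no lower limit. H2ac18, the neighbour of H2ac19, was 1.39, 1.53 and 0.587 CPM in the vehicle libraries. After doxorubicin it was 1.77, 27.6 and 3.27 CPM, where replicate 2 stood far above the other libraries. H2ac18 narrowly missed the threshold (limma, adjusted p = 0.0523), and its ratio of means was 9.33 with all libraries and 2.16 without doxorubicin replicate 2. Hist1h2ap was the H2A gene that fell, from 1.04, 1.42 and 1.53 CPM to 0, 0.180 and 0 CPM (-1.14 log2 units, limma, adjusted p = 0.000252). All 3 H3 members rose at low levels, where 21.2% of all tested genes rose. H3c15 and H3c4 did not reach the CPM minimum through vehicle libraries alone. H3c14 went from 0, 0.605 and 1.10 CPM to 1.74, 1.93 and 2.64 CPM, H3c15 from 0.267, 0.133 and 0.282 CPM to 0.9999, 1.05 and 1.49 CPM and H3c4 from 0.0493, 0.188 and 0.0528 CPM to 0.512, 0.443 and 0.615 CPM. Their differences were 1.04, 0.82 and 0.48 log2 units (limma, adjusted p = 0.00949, 0.00237 and 0.00214).

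The size of the increase differed between the doxorubicin libraries. Of the 18 members that rose, 15 had their lowest treated value in replicate 1, 3 in replicate 2 and 0 in replicate 3. Principal components were computed over genes with 1 CPM or more in at least 3 libraries. On the second component doxorubicin replicate 1 also stood apart from the other 2 libraries of its group, as did peroxide replicate 2 and doxorubicin vehicle replicate 3 in theirs. Without these 3 libraries 20 members rose and 5 fell with doxorubicin, and 7 rose and 6 fell with peroxide. Estimated depth was 21.5, 37.6 and 35.3 M reads in doxorubicin replicates 1, 2 and 3 and 22.2, 32.4 and 21.4 M in those of peroxide. In the doxorubicin vehicle replicates it was 20.3, 21.9 and 19.5 M. What set the 3 libraries apart, and the part of depth in it, was not tested.

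Peroxide moved fewer members upward, and the pattern was mixed. With peroxide 8 of 29 members rose, 6 fell and 15 did not pass the test, where 25.4% of all tested genes rose and 19.9% fell. The median difference was -0.01 log2 units over the members and 0.02 over all tested genes. The libraries did not overlap for 7 members that were higher and 7 that were lower, against 29.8% and 25.8% of all tested genes. The share of members that rose was thus close to that of all genes. Without peroxide vehicle replicate 2 the count of members that rose was 5. Of the 17 members that the vehicle libraries alone would have admitted, 4 rose and 6 fell with peroxide in the fit of all libraries.

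H1f2 again rose, from 5.84, 5.05 and 7.85 CPM in the peroxide vehicle libraries to 23.4, 21.9 and 21.6 CPM after peroxide. The 3 treated libraries lay close together and above every vehicle library (1.70 ± 0.15 (SE) log2 units, limma, adjusted p = 3.63e-06). H1f3 rose from 0.285, 0.0953 and 0.0578 CPM to 0.948, 0.834 and 0.795 CPM (0.70 log2 units, limma, adjusted p = 0.00125). H1f5 had the largest decrease of any member, from 8.98, 10.3 and 9.48 CPM to 0.586, 1.27 and 0.514 CPM, 12.1 times lower in the means (-2.59 ± 0.16 (SE) log2 units, limma, adjusted p = 2.56e-07). H1f1 fell from 1.25, 1.33 and 1.21 CPM to 0.0451, 0.185 and 0.280 CPM (-0.96 log2 units, limma, adjusted p = 0.000164). H1f0 fell by less than with doxorubicin, from 54.0, 51.7 and 57.0 CPM to 45.3, 44.6 and 47.2 CPM (-0.24 ± 0.07 (SE) log2 units, limma, adjusted p = 0.0118). That call was lost with upper quartile scaling and without peroxide vehicle replicate 3.

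Of the 7 H4 members, 2 fell and 1 rose after peroxide, against 19.9% and 25.4% of all tested genes. H4c4 was 22.2, 21.1 and 19.1 CPM in the vehicle libraries and 7.11, 1.08 and 5.09 CPM after peroxide, with replicate 2 lowest and no overlap. The difference was -2.22 ± 0.38 (SE) log2 units (limma, adjusted p = 0.000608). H4c9 fell from 5.79, 5.20 and 3.57 CPM to 2.36, 1.24 and 3.46 CPM (-0.84 log2 units, limma, adjusted p = 0.0369), a call lost in 8 of 26 other settings, among them those without vehicle replicate 1 or 2 and those without peroxide replicate 1 or 2. H4c14 rose, from 0.284, 0.238 and 1.04 CPM to 1.99, 0.896 and 2.43 CPM (0.86 log2 units, limma, adjusted p = 0.0117), and did not pass without peroxide vehicle replicate 2. H4c8 was 0.930, 0.811 and 0.547 CPM in the vehicle libraries and 1.11, 0.123 and 1.62 CPM after peroxide, with overlapping ranges.

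Of the H2A and H2B genes, H2ac6, H2bc21, Hist1h2bq and Hist1h2br rose after peroxide and Hist1h2ap fell. H2ac6 went from 0.235, 0.203 and 0.244 CPM to 1.17, 0.984 and 1.63 CPM (0.87 log2 units, limma, adjusted p = 0.000149). This increase was also part of its selection, since no vehicle library reached the CPM minimum for H2ac6. Hist1h2br went from 2.42, 0.499 and 0.395 CPM to 4.28, 2.59 and 3.50 CPM (1.19 log2 units, limma, adjusted p = 0.00950) and Hist1h2bq from 0, 0 and 0.417 CPM to 1.10, 3.13 and 2.34 CPM (1.45 log2 units, limma, adjusted p = 0.00600). H2bc21 went from 1.31, 0.667 and 0.578 CPM to 2.12, 1.70 and 1.78 CPM (0.65 log2 units, limma, adjusted p = 0.0232), and lost this call without vehicle replicate 2 or 3 or without peroxide replicate 1. Hist1h2ap went from 2.82, 2.13 and 1.49 CPM to 0.317, 0 and 0.348 CPM (-1.35 log2 units, limma, adjusted p = 6.01e-05). H2bc4 was 26.0, 7.01 and 6.31 CPM in the vehicle libraries and 15.9, 7.54 and 15.5 CPM after peroxide. Peroxide vehicle replicate 1 was the highest of these 6 libraries, and without it the ratio of the means changed from 0.992 to 1.95. Among H3 genes, H3c15 alone passed the test (0.48 log2 units, limma, adjusted p = 0.0411), and 12 of 25 other settings lost it, 7 of them by leaving out any 1 doxorubicin vehicle library, peroxide vehicle replicate 1 or 2 or peroxide replicate 1 or 2.

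**Figure D2:**
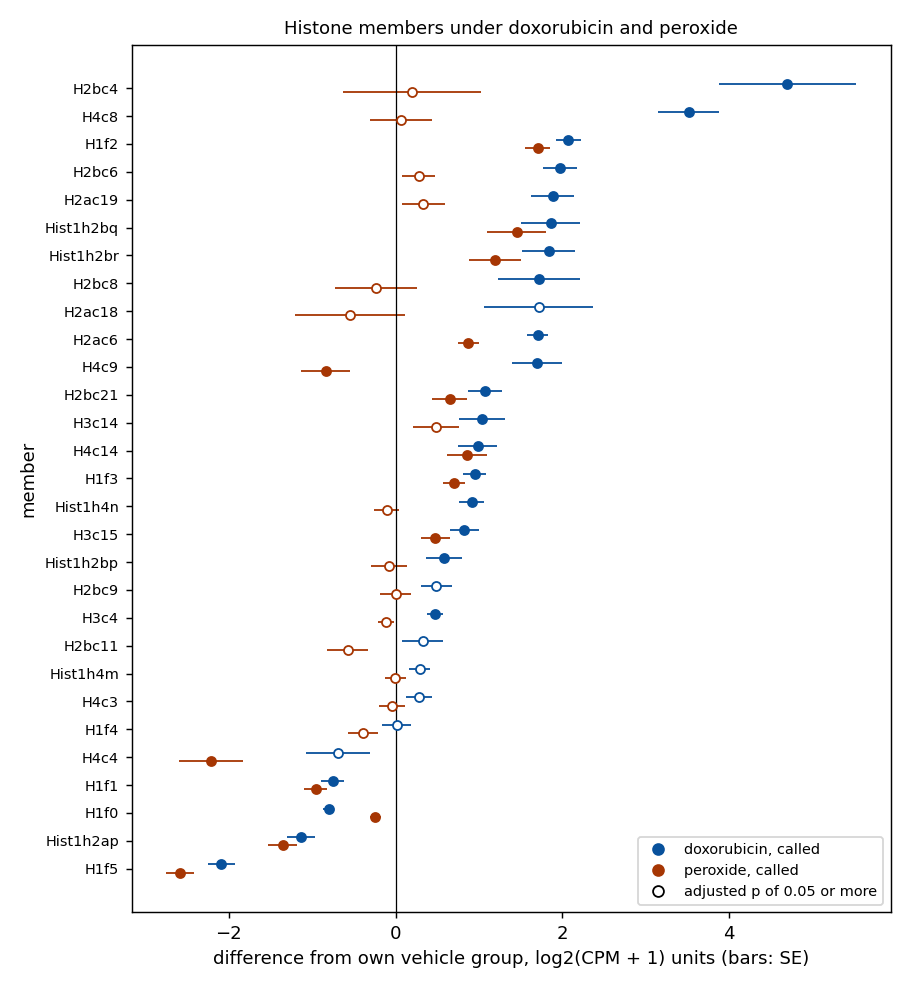
Difference of each of the 29 members from its own vehicle group in log2(CPM + 1) units (horizontal axis), ordered by the doxorubicin difference, with bars for the standard error and filled symbols for an adjusted p under 0.05. H1f2 lies to the right and H1f5 to the left under both treatments, whereas H2bc4 and H4c8 lie far to the right under doxorubicin at 4.70 and 3.52 and near 0 under peroxide.

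The 2 treatments were compared with separate vehicle groups. In both comparisons 8 members rose, H1f2, H1f3, H2ac6, H2bc21, Hist1h2bq, Hist1h2br, H3c15 and H4c14, where 11.9% of all tested genes rose in both. H2ac6 reached the CPM minimum in treated libraries alone, so both of its increases were part of its selection. H1f3, Hist1h2bq and H3c15 did not reach the minimum through vehicle libraries alone, so their increases also bore on their selection. The count of 8 is thus not independent of the choice of members. In both comparisons 4 members fell, H1f0, H1f1, H1f5 and Hist1h2ap, where 11.1% of all tested genes did. H4c9 rose with doxorubicin and fell with peroxide. Another 9 members rose with doxorubicin and did not pass the test with peroxide, H4c4 fell with peroxide and did not pass with doxorubicin, and 6 members passed in neither.

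The difference between the effects was tested in the same fit. The doxorubicin effect was higher for 8 members and lower for 1, where 11.3% and 16.3% of all tested genes passed. Hist1h4n is among the 8, and as its doxorubicin libraries alone brought it over the CPM minimum, its higher doxorubicin effect was part of its selection. The largest differences were 4.50 ± 1.16 (SE) log2 units for H2bc4 and 3.45 ± 0.52 (SE) for H4c8 (limma, adjusted p = 0.0160 and 0.001004). H4c9 followed at 2.53 ± 0.42 (SE), then H2bc6 at 1.70 ± 0.28 (SE) and H2ac19 at 1.55 ± 0.37 (SE) (limma, adjusted p = 0.00171, 0.00178 and 0.0106). H2ac6, which rose in both, rose further with doxorubicin by 0.83 ± 0.18 (SE) log2 units (limma, adjusted p = 0.00628), and H3c4 also passed. H1f0 fell further with doxorubicin, a difference of -0.56 log2 units (limma, adjusted p = 0.00195). Its means were 74.2 and 54.25 CPM in the doxorubicin and peroxide vehicle groups, and 42.2 and 45.7 CPM after doxorubicin and peroxide. For H1f2 the difference was 0.37 ± 0.22 (SE) and for H1f5 0.50 ± 0.23 (SE), and neither passed (limma, adjusted p = 0.221 and 0.131). Without doxorubicin replicate 1, 13 members had a higher doxorubicin effect. H2bc4 lost its call (adjusted p = 0.0554) when doxorubicin vehicle replicate 3 and peroxide replicate 2 were both left out. Doses, durations and days of lysis differed between the treatments, and their part in these differences cannot be told apart. Starting levels differed too, and their part was not tested. For H4c8, H4c9, H2bc6, H2ac19 and H3c4 every doxorubicin vehicle library lay below every peroxide vehicle library, as for 23.7% of all tested genes. For H2bc4, H2ac6 and Hist1h4n the vehicle libraries overlapped.

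The vehicle groups themselves were not alike for every member. H1f0 was higher in the doxorubicin vehicle group by 0.45 log2 units (limma, adjusted p = 0.000712), and its ranges did not overlap. H4c9 and H3c4 were lower there, with differences of -1.05 and -0.34 log2 units (limma, adjusted p = 0.0241 and 0.0267). These were 1 member higher and 2 lower, against 12.5% and 10.9% of all tested genes. The vehicle libraries did not overlap for 1 member that was higher and 7 that were lower there, against 23.1% and 23.7% of all tested genes. H3c4 lost its call without doxorubicin vehicle replicate 1 or 3 or without peroxide vehicle replicate 1, and H4c9 without doxorubicin vehicle replicate 3 or without peroxide vehicle replicate 1 or 2.

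Per kilobase of annotated exon, which allows levels of different genes to be set side by side, H1f0 ranked first in both vehicle groups, with mean levels of 36.1 CPM per kb in the doxorubicin vehicle and 26.4 in the peroxide vehicle. H4c4 followed with mean levels of 10.1 and 18.3 CPM per kb and H1f5 with 9.23 and 12.9, and in the doxorubicin vehicle group the H1f5 level lay within the range of the H4c4 libraries. After doxorubicin the order of mean levels was H2bc4 at 196.5, H4c8 at 28.6, H1f2 at 24.3, H1f0 at 20.5 and H2ac18 at 18.6 CPM per kb. None of these neighbours was separated by its libraries. H2bc4 in replicate 1 was at 25.5 CPM per kb, within the range of H4c8 (13.1 to 38.1) and of H1f2 (21.1 to 28.9), and the H1f0 libraries (19.9 to 21.4) overlapped those of H1f2. H2ac18 was at 3.02, 47.2 and 5.58 CPM per kb, so its place rests on replicate 2, without which its mean was 4.30. After peroxide H1f0 led at 22.2, followed by H1f2 at 14.3 and H2bc4 at 11.2 CPM per kb.

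Sums over a class do not depend on how reads are divided among near-identical members. They can still depend on reads shared with genes outside the class sum, such as Gm20634, which overlaps H2ac18 and H3c14. H2A members summed to 2.48, 3.04 and 2.32 CPM in the doxorubicin vehicle libraries and to 5.84, 35.5 and 8.11 CPM after doxorubicin. H2B members went from 9.23, 10.4 and 6.91 CPM to 45.9, 456 and 257 CPM, and without H2bc4 from 3.81, 3.71 and 4.50 CPM to 16.4, 31.0 and 30.8 CPM. H3 members went from 0.317, 0.926 and 1.44 CPM to 3.26, 3.42 and 4.75 CPM and H4 members from 15.6, 17.3 and 11.2 CPM to 21.4, 36.7 and 39.9 CPM. All 4 core classes were higher in every doxorubicin library than in any of its vehicle libraries, while the H1 sums overlapped. Without H4c4 the H4 sum went from 3.19, 4.50 and 2.05 CPM to 15.96, 29.6 and 32.5 CPM. After peroxide the H4 sum was lower, at 12.8, 3.43 and 13.1 CPM against 29.6, 28.2 and 24.3 CPM. Without H4c4 it overlapped, at 5.68, 2.35 and 8.04 CPM against 7.43, 7.08 and 5.16 CPM. The H3 sum was higher, at 1.76, 1.76 and 2.01 CPM against 1.23, 0.852 and 0.777 CPM, and the H2A, H2B and H1 sums overlapped. The log2 ratio of the H3 sums was 0.95 over the members and 0.0319 when the genes of the class under the CPM minimum were added. The H2B sum without H2bc4 did not overlap, at 9.42, 9.09 and 9.83 CPM against 7.63, 3.10 and 2.71 CPM. No test was made on these sums, since their members were chosen with earlier results known.

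**Figure D3:**
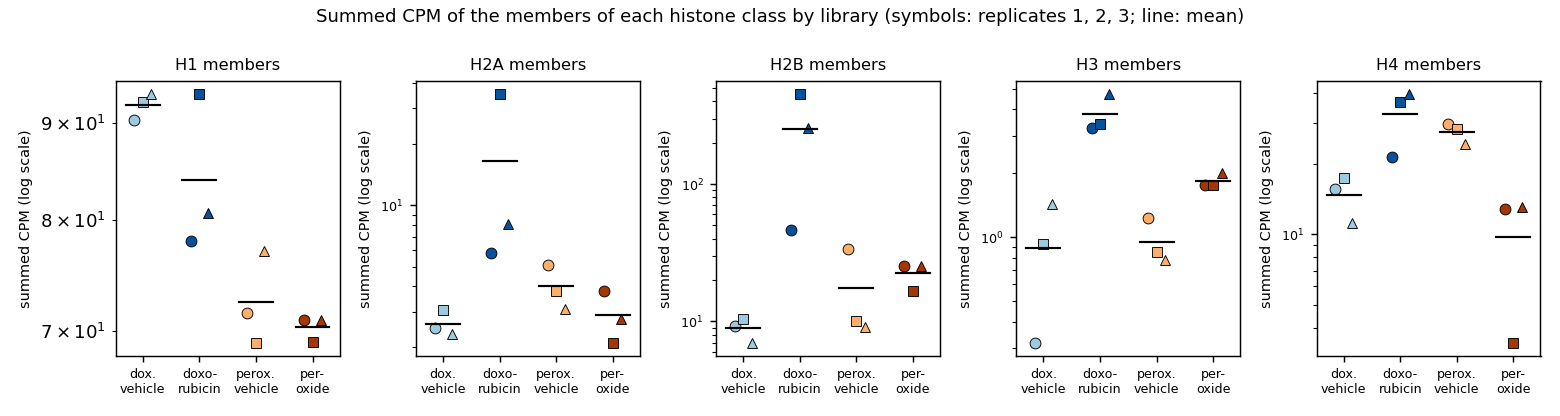
Summed CPM of the members of each histone class in each library, with 1 panel per class, the 4 groups on the horizontal axis and a logarithmic vertical axis whose range differs between panels. Symbols mark replicates 1 to 3 and black lines the means: the H4 sum moves up with doxorubicin and, with H4c4 included, down with peroxide, and the H2B sum of doxorubicin replicate 2 reaches 456.5 CPM.

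The direction of change was set beside the annotated transcript end. Over all tested genes, 21.2% rose and 23.7% fell with doxorubicin, and 25.4% rose and 19.9% fell with peroxide. Of the 15 members whose transcripts extend past the stem-loop, 11 rose with doxorubicin and 0 fell. With peroxide 5 of them rose and 2 fell. Among the 11, H1f3, H2ac6, H2bc8, Hist1h2bp, H3c15 and H3c4 did not reach the CPM minimum through vehicle libraries alone. These counts are thus not independent of the choice of members. Of the 8 that end near the stem-loop, 3 rose with doxorubicin (H4c8, H2ac19 and Hist1h4n) and 2 fell (H1f1 and Hist1h2ap), and with peroxide 0 rose and 2 fell. Of the 6 without a match, 4 rose and 2 fell with doxorubicin, the latter being H1f0 and H1f5, and with peroxide 3 rose and 2 fell. Among the 40 histone genes under the CPM minimum, 7 extended past the stem-loop, 15 ended near it and 18 had no match, so transcripts that extend past it made up a larger share of the members. Several of the 18 are short gene models, such as H2bc13 with 381 bases and H4c12 with 312 bases, whose annotation may stop before the element. The same may hold for the member H1f5, whose model has 743 bases. CPM is also not scaled for length, so long transcripts meet the minimum more easily. The part of either in this comparison was not tested. All counts of this paragraph are without a test, and CPM does not show where in a gene the reads lay.

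The genes that copy DNA, make histone mRNA and handle histone protein were measured in the same libraries, from lists drawn up by function. Among all tested genes, the background for each of these lists, 21.2% rose and 23.7% fell with doxorubicin. With peroxide 25.4% of them rose and 19.9% fell. Of 23 genes of S phase entry and DNA synthesis, 2 rose and 16 fell with doxorubicin, and 1 rose and 22 fell with peroxide. Mki67, the marker of cycling cells, fell from 70.8, 80.1 and 78.8 CPM to 17.6, 17.5 and 19.97 CPM with doxorubicin (-2.002 log2 units, limma, adjusted p = 8.82e-09) and from 133, 122 and 121 CPM to 35.7, 31.7 and 34.9 CPM with peroxide (-1.85 log2 units, limma, adjusted p = 2.29e-08). Ccna2, the cyclin of S and G2 phase, differed by -1.90 and -1.62 log2 units, and Uhrf1, which maintains DNA methylation at the replication fork, by -1.57 and -2.21. The list summed to 1909 to 2190 CPM in the doxorubicin vehicle libraries, 1167 to 1229 after doxorubicin, 3709 to 4703 in the peroxide vehicle libraries and 1198 to 1282 after peroxide. In the test of the difference between the effects, 10 of the 23 genes had a higher doxorubicin effect and 0 a lower one. The shares of all tested genes were 11.3% and 16.3%. The peroxide vehicle libraries started higher for this list. Between the vehicle groups 20 of the 23 genes were lower in the doxorubicin vehicle and 0 higher, against 10.9% and 12.5% of all tested genes. The part of these levels in the histone results was not tested.

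Histone chaperones, the proteins that carry histones and load them on DNA, mostly fell. Of 21 genes, 2 rose and 12 fell with doxorubicin, and 1 rose and 15 fell with peroxide. Nasp, which holds free H3 and H4, differed by -1.57 and -1.66 log2 units. Asf1b, which hands H3 and H4 to new DNA, differed by -1.63 and -1.49, and Anp32e, which removes the variant H2A.Z from chromatin, by -1.12 and -1.20. All 6 differences passed the test (limma, adjusted p of at most 1.18e-07).

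Genes of histone transcription and pre-mRNA processing changed less evenly. Of 20 genes, 1 rose and 9 fell with doxorubicin, and 1 rose and 6 fell with peroxide. Slbp, which binds the stem-loop, was 53.5, 57.7 and 18.6 CPM in the doxorubicin vehicle libraries and 36.5, 45.7 and 49.9 CPM after doxorubicin, and did not pass the test (limma, adjusted p = 0.793). With peroxide Slbp fell from 95.9, 95.2 and 72.2 CPM to 37.2, 13.9 and 52.1 CPM (-1.50 ± 0.46 (SE) log2 units, limma, adjusted p = 0.0199). Its lowest vehicle and treated values came from doxorubicin vehicle replicate 3 and peroxide replicate 2, libraries that stand apart from their groups. Npat, the activator of the clusters, fell with doxorubicin, a difference of -0.48 log2 units (limma, adjusted p = 0.0215), and its peroxide difference of -0.21 did not pass (limma, adjusted p = 0.276). Casp8ap2, a partner of Npat, differed by -0.57 and -0.69 log2 units. Ncbp1, of the cap-binding complex, differed by -0.28 and -0.88, and all 4 of these differences passed the test (limma, adjusted p of at most 0.0376). Cpsf2, of the complex that cuts histone pre-mRNA, differed by -0.15 with doxorubicin and -1.19 with peroxide, and the second alone passed (limma, adjusted p = 0.442 and 5.74e-05).

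Of 10 tested genes of histone mRNA decay, 3 rose and 2 fell with doxorubicin, and 2 rose and 3 fell with peroxide. For so few genes these counts lay near the shares of all tested genes. Those were 21.2% and 23.7% with doxorubicin and 25.4% and 19.9% with peroxide. Tut7, which adds uridines to histone mRNA, rose by 0.36 and 0.75 log2 units, and Eri1, the nuclease that trims its 3′ end, differed by -0.70 and -0.49. Exosc10, of the nuclear exosome, differed by -0.31 and -0.45. These 6 differences passed the test (limma, adjusted p of at most 0.0231).

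The genes listed as replication-independent variants, of which several can replace the clustered histones outside S phase, mostly fell or did not pass the test. Of 11 tested genes, H1f0 included, 1 rose and 5 fell with doxorubicin, and 0 rose and 6 fell with peroxide. H2az1, the H2A.Z gene, fell from 1410.0 to 369.6 CPM with doxorubicin and from 1664 to 444 CPM with peroxide (n = 3, limma, adjusted p = 1.63e-08 and 2.35e-08). H3f3b, which encodes H3.3, fell from 1223 to 733 CPM and from 1152 to 898 CPM (n = 3, limma, adjusted p = 3.37e-06 and 0.000779). H2ax, the variant phosphorylated at DNA breaks, differed by -0.62 and -0.48 log2 units (limma, adjusted p = 0.00378 and 0.0146).

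**Figure D4:**
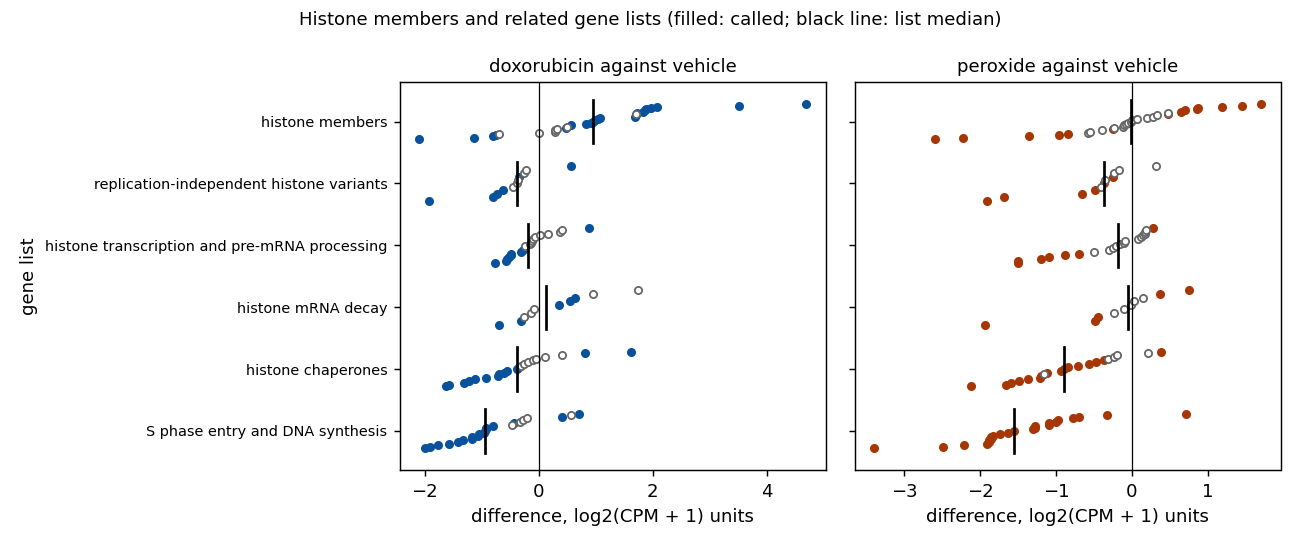
Difference from the own vehicle group in log2(CPM + 1) units for the histone members and for 5 lists of related genes, with doxorubicin on the left and peroxide on the right. Each symbol is a gene, filled where the adjusted p was under 0.05, and black lines mark medians: the member median is 0.95 with doxorubicin and -0.01 with peroxide, and the median of the S phase list is -0.94 and -1.55.

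Markers were checked against the label of the line. All 9 fibroblast markers passed the low-value filter, and 7 rose with each treatment. Defining markers of other cell types were near 0: Ptprc of leukocytes averaged at most 0.0421 CPM in any group, Cdh5 of endothelium at most 0.0155 CPM, and the 6 epithelial markers together at most 1.16 CPM in any library. Adipocyte markers gave a mixed picture, with Lpl at group means of 998 to 2271 CPM and Adipoq at 0.226 to 3.196 CPM. The endothelial list summed to 5.57 to 44.4 CPM over the libraries, most of it Tek, which rose with both treatments, and the leukocyte list to 9.88 to 20.2 CPM, most of it Csf1r and Cd68. With doxorubicin Pdgfrb was the fibroblast marker that fell. The part of these levels in the histone results was not tested.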

How the data were processed

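The authors deposited 1 table of CPM for 12 libraries, sequenced on an Illumina NovaSeq instrument per the labels' protocols. Software named in the submitters' processing notes was bcl2fastq and DRAGEN, with the build mm10, without versions. Counting method, annotation and library kit: not given in the sources used here. Lines that repeated a gene identifier (287 of 55774) were dropped, and 0 value columns were left unmapped. Values up to 20 reads were whole for 74.7 to 79.9% (tolerance 0.001 read), so counts could not be recovered and no count model was run. A floor of 3 reads over a group equalled 0.0318 to 0.0537 CPM, a limit of counting error alone.

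Tests covered 15921 genes that reached 0.3 CPM in 3 or more libraries, on the scale log2(CPM + 1), which understates changes of low genes. A limma model with a mean-variance trend (limma 3.58.1, R 4.3.3) took 1 mean for each of the 4 groups (8 residual degrees of freedom, median of 3.41 prior ones). Two-sided p-values received Benjamini-Hochberg adjustment over all tested genes, at a threshold of 0.05. The fit was tested on simulated data. Python 3.11.15 (matplotlib 3.10.9, numpy 2.4.6, pandas 2.3.3) served for tables and plots. Transcript features came from GENCODE M21 and promoters from RefSeq.

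Members and lists were chosen with earlier results of these data known. Named members were the 2 with the highest mean CPM per class, the 5 largest called increases and decreases per treatment and up to 6 with differing effects. Named list genes were the 3 with the smallest adjusted p, with Slbp, Npat, H2ax, H2az1, H3f3b and Mki67. Other members are named for completeness. Alternatives were pseudocounts of 0.25 and 2, a filter of 1 CPM and none, median-of-ratios and upper quartile scaling, no trend, array weights, separate fits, a replicate block, a GC correction and leaving out libraries. Class sums without their highest member were added after seeing the data.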

Additional observations from a re-analysis of the deposited data

Results flagged for a closer look

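For 9 members the effect of doxorubicin differed from that of peroxide in the test of the difference itself (limma, adjusted p under 0.05). In log2 units, as the doxorubicin effect minus the peroxide effect, the values were 4.50 for H2bc4, 3.45 for H4c8, 2.53 for H4c9, 1.70 for H2bc6, 1.55 for H2ac19, 1.02 for Hist1h4n, 0.83 for H2ac6, 0.59 for H3c4 and -0.56 for H1f0. H4c9 is the member among them that rose with one treatment and fell with the other. Hist1h4n reached the CPM minimum through the doxorubicin group alone, so its value was part of its selection. The vehicle groups also started apart for H4c8, H4c9, H2bc6, H2ac19 and H3c4, lower in every doxorubicin vehicle library, and for H1f0, higher in every one.

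The summed CPM of the H4 members moved in opposite directions. Every doxorubicin library lay above its vehicle libraries, with a log2 ratio of means of 1.15, and every peroxide library lay below its vehicle libraries, with a log2 ratio of -1.48. Without H4c4 the peroxide libraries overlapped their vehicle libraries, with a log2 ratio of -0.29, and the doxorubicin ratio was 3.00. The difference between these sums was not tested. The vehicle groups themselves did not overlap for the H4 sum. It was 15.6, 17.3 and 11.2 CPM in the doxorubicin vehicle libraries and 29.6, 28.2 and 24.3 CPM in the peroxide vehicle libraries.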

How the results depend on the processing

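Across up to 26 alternative settings, 20 of 22 calls on members with doxorubicin, 9 of 14 with peroxide, 8 of 9 for the difference between effects (up to 25 settings) and 1 of 3 between vehicle groups (up to 25 settings) were kept in all that tested them, since some members do not reach 1 CPM. Leaving out each library in turn gave 16 to 21 members higher and 4 to 5 lower with doxorubicin, 5 to 8 higher and 5 to 6 lower with peroxide, 8 to 13 with a higher and 1 to 1 with a lower doxorubicin effect, and 1 to 2 higher and 0 to 4 lower in the doxorubicin vehicle group. Array weights gave 18 members with a higher doxorubicin effect and, between vehicles, 2 higher and 6 lower. Leaving out the 3 libraries that stand apart gave 13 with a higher doxorubicin effect. The count lower in the doxorubicin vehicle group, 2 in all libraries, was 1 with the filter of 1 CPM, 1 with no filter, 0 with the replicate block and 1 with the GC correction and the block. Same-numbered libraries correlated at -0.31 to 0.19 in the doxorubicin experiment and -0.24 to 0.14 in the peroxide experiment, so the numbers were not taken as pairs. With the replicate block, 18 members rose and 4 fell with doxorubicin, 7 rose and 5 fell with peroxide, and 8 and 1 differed between treatments. The log2 ratio of the H2A sum with doxorubicin ran from 1.42 to 3.06 and that of the H2B sum with peroxide from 0.038 to 1.23 over libraries left out. The H3 sum with peroxide changed from 0.95 to 0.0319 when all named genes were summed. The H1 sum with peroxide, -0.04, was 0.00219 without peroxide vehicle replicate 3 and ran from -0.0787 to 0.00219 over libraries left out. Class sums that left out the member with the highest CPM were chosen after seeing the data. Without H1f0 the H1 ratio was 1.24 with doxorubicin (-0.13 with it) and 0.43 with peroxide, without H2bc4 the H2B ratio with doxorubicin was 2.70, and without H4c4 the H4 ratio was 3.00 with doxorubicin and -0.29 with peroxide. Most of the H1 sum without H1f0 was H1f2 in both treated groups, at means of 37.9 CPM with doxorubicin and 22.3 CPM with peroxide. The causes were not tested. Pseudocounts moved the fitted size of low members by more than 1.5 times, such as H2ac19 with doxorubicin from 1.88 to 3.53 at 0.25 and 1.24 at 2. Upper quartile scaling shifted the median difference between effects of all genes to -0.13.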
